A study of Caenorhabditis elegans with 12 samples.

Results

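Loss of *fog-2* was examined in whole adults of the nematode *Caenorhabditis elegans* on the first day of adulthood. The comparison takes 6 of the 12 RNA-seq libraries of the study, chosen by their labelled genotype and age: 3 of *fog-2(lf)* worms and 3 of wild-type worms. The *fog-2(lf)* worms were of strain JK574, which carries the *fog-2(q71)* allele, and the wild-type worms were N2. All were XX animals raised on bacterial lawns and collected before embryos were visible, and each library was made from the poly(A) RNA of a pool of whole worms. The other 6 libraries hold the same 2 genotypes on the sixth day of adulthood. They entered the same fit, and so share its estimate of the spread, and served to measure the genotype difference at the later age. The mutant is represented by 1 allele in 1 strain, so other differences between JK574 and N2 cannot be told apart from loss of *fog-2*. In whole-animal RNA, fewer cells of a type and less RNA per cell cannot be told apart either.

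FOG-2 is an F-box protein that acts with the RNA-binding protein GLD-1 to hold down translation of the sex-determination gene *tra-2* in the hermaphrodite germline, and so lets the first germ cells develop as sperm. XX animals that lack it make oocytes only and are females without self-sperm. In *C. elegans* sperm release major sperm protein, which triggers oocyte maturation and contraction of the gonadal sheath, and oocytes stay arrested where sperm are absent. Yolk proteins are made in the intestine and taken up by growing oocytes.

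The libraries were of similar depth but not equally alike. They held 21162593 to 38775999 estimated counts, and 14561 of 22037 genes passed a filter on low counts and were tested. Each gene was tested with edgeR's quasi-likelihood test, and p-values were adjusted by the Benjamini-Hochberg method (edgeR adjusted p). Genes with a value under 0.1 are referred to as called. Levels are CPM, counts scaled to a common library size by TMM, and log2 fold changes are *fog-2(lf)* over wild type. Wild type replicate 2 stood apart. On the first principal component of the 6 libraries, which carried 48% of the variance, the *fog-2(lf)* libraries lay at -25.04, -29.4 and -32.6 and the wild-type libraries at 43.8, -6.73 and 50.01. It held 315 genes at over 4 times the level of each of the other 5 first-day libraries, against 0 to 40 such genes in any other library. It was also the wild-type library nearest to the *fog-2(lf)* mean for 924 of the 1545 genes called lower (59.8%) and for 370 of the 1126 called higher (32.9%). The counts of called members of gene lists below are therefore given also without it. Where replicates did not come from separate cultures, p-values measure only the spread among these libraries, which may be technical.

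The targeted gene was low in every mutant library. *fog-2* (WBGene00001482, chromosome V, 20199254 to 20200648 on the plus strand of WBcel235) had 4.86, 3.92 and 4.18 CPM in *fog-2(lf)*, against 52.8, 44.5 and 45.98 CPM in wild type. The groups did not overlap, and the difference was 11.1-fold (log2 fold change -3.47, SE 0.12, edgeR adjusted p = 7.9e-08). Its neighbour and closest paralog *ftr-1*, at 20196971 to 20198241 on the same strand, had 25.8, 26.1 and 25.11 CPM in *fog-2(lf)*, against 34.1, 30.5 and 32.2 CPM in wild type. That smaller difference (log2 fold change -0.33, edgeR adjusted p = 0.030) was not called without *fog-2(lf)* replicate 3 (0.11), under scaling by library totals or in limma on TPM, and reads of such close copies may be split between them. Of the 213 other tested genes within 1 Mb of *fog-2*, 16 were called higher and 16 lower (15%). Across the chromosomes the share of genes called lay between 16.1% on chromosome I and 23.7% on chromosome X.

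Loss of *fog-2* came with 2671 called genes, 18.3% of those tested. Of these 1126 were higher in *fog-2(lf)* (7.73%) and 1545 lower (10.6%). Counts of called list members below are to be set beside these shares of all genes tested. Most differences were small. The median called increase was 1.74-fold and the median called decrease 1.98-fold, while 146 genes were over 4-fold higher and 212 over 4-fold lower. The 3 libraries of each genotype did not overlap for 1028 of the genes called higher and 1281 of those called lower. Over all genes tested, the 3 *fog-2(lf)* libraries lay above the wild-type libraries for 12.9% of genes and below them for 13.4%.

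The number called depended on the libraries in the fit. Without wild type replicate 2 the test called 3672 genes (24.6% of 14918 tested), with 1510 higher (10.1%) and 2162 lower (14.5%), and 914 of the genes called higher and 1353 of those called lower remained. Without *fog-2(lf)* replicate 3 it called 1156 genes, without *fog-2(lf)* replicate 1 1611 and without *fog-2(lf)* replicate 2 1658. A fit of the 6 first-day libraries alone called 605 of 13229 genes tested (203 higher, 402 lower). Counts of list members in that fit are to be set beside these. In all 12 fits that left out 1 library each, 347 of the increases and 555 of the decreases held their call, and unless said otherwise the genes named below are among these. The direction depended on the scaling: with library totals in place of TMM, which moved the median change over all genes to 0.14 against -0.01 (log2), 2528 genes were higher and 1067 lower, and limma on log2(TPM + 0.5) gave 1702 higher and 866 lower. Small differences are therefore read below relative to the median of all genes, -0.01.

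**Figure D1:**
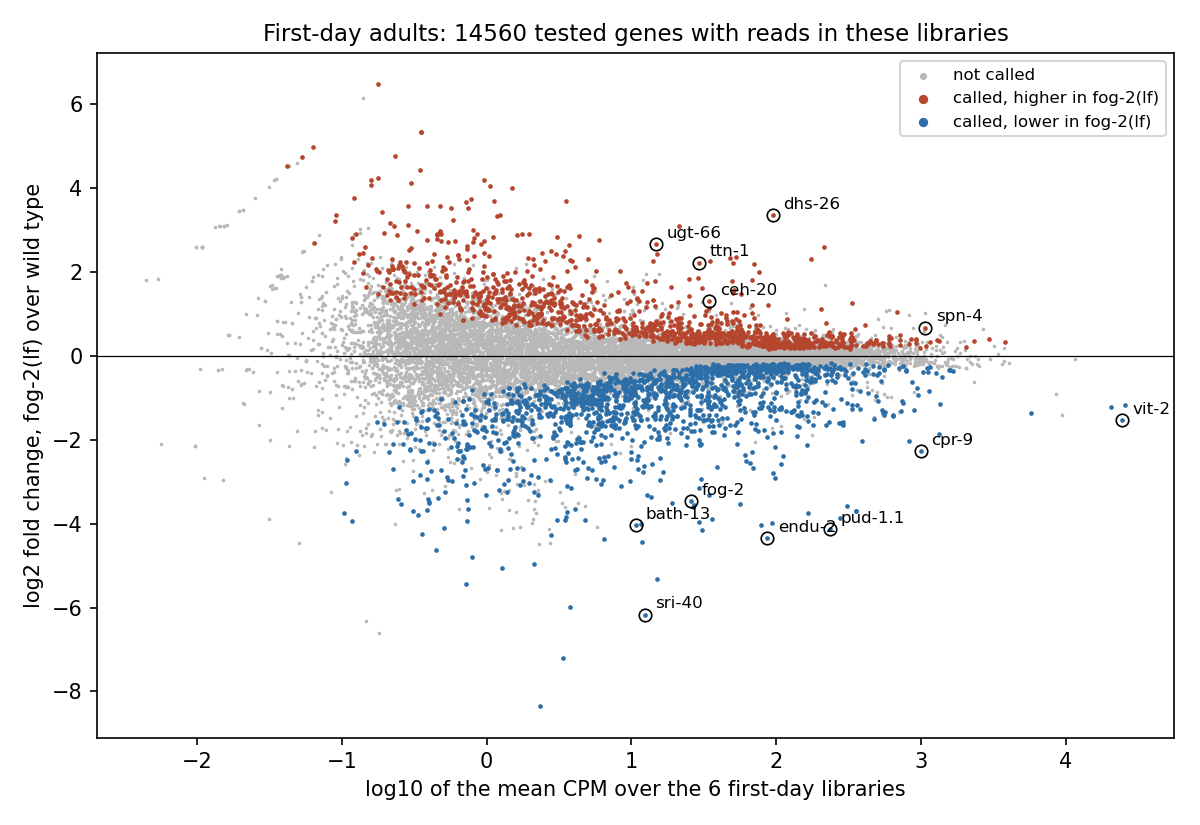
Log2 fold change (*fog-2(lf)* over wild type) of each tested gene with first-day reads against the log10 of its mean CPM over the 6 first-day libraries. Called genes (edgeR adjusted p under 0.1) are coloured, 1126 higher and 1545 lower, and circles mark genes discussed in the text, from *sri-40* at -6.17 to *dhs-26* at 3.35.

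Transcripts of the major sperm proteins were low in both genotypes except in 1 library. The 31 major sperm protein (*msp*) genes summed to 1.42, 18.6 and 1.37 CPM in *fog-2(lf)*, against 2.09, 239 and 5.99 CPM in wild type. Wild type replicate 2 was thus far above the rest, with 28 of the 31 genes at 1 CPM or more, and *fog-2(lf)* replicate 2 was the next highest, with 3. *gsp-4*, a sperm protein phosphatase, had 0, 0.586 and 0.098 CPM in *fog-2(lf)*, against 0.108, 6.503 and 0.230 CPM in wild type. *ssq-4*, a sperm-specific gene, had 0, 1.84 and 0.0327 CPM in *fog-2(lf)*, against 0.0719, 32.3 and 0.691 CPM in wild type. Both showed the same pattern, high in wild type replicate 2 and overlapping otherwise, and neither was called.

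Of the 13 *msp* genes tested, edgeR called 2 lower (median log2 fold change -3.89). Without wild type replicate 2 it called 0 of 13, with 1 at an unadjusted p under 0.05, and the median turned to 0.74. The 65 other sperm genes were not low as a group, summing to 422, 483 and 455 CPM in *fog-2(lf)*, against 395, 729 and 480 CPM in wild type, with 14 to 18 genes at 1 CPM or more in each library except wild type replicate 2, which had 44. Of 36 of them tested, 2 were called higher and 7 lower, and without that library 5 and 2. Copies of *msp* genes are nearly identical, and their counts may be shared among them. The sperm gene *ssp-37* was called lower in all 12 leave-one-out fits, at 4.83, 2.64 and 3.82 CPM in *fog-2(lf)*, against 12.3, 5.76 and 15.4 CPM in wild type (log2 fold change -1.56, edgeR adjusted p = 0.017). The groups did not overlap, but the fit of the 6 first-day libraries alone did not call it. The spermatogenesis genes *spe-9* and *fer-1* had 0.267 to 1.52 CPM in *fog-2(lf)* and 0.0719 to 1.21 CPM in wild type, and neither was called.

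Markers of other cells that such pools could hold were at low summed levels. Genes of the male soma and seminal cells (20 genes, 9 tested) summed to 15.4, 17.1 and 15.7 CPM in *fog-2(lf)*, against 15.8, 12.8 and 17.96 CPM in wild type. edgeR called 0 of the 9, with 0 at an unadjusted p under 0.05, and DESeq2 called 0. Of 8 male markers looked at singly, *cwp-1*, *mab-23* and *dmd-3* had at most 2 counts in any first-day library and *plg-1*, *lov-1* and *pkd-2* at most 4, 5 and 7. *klp-6* had 20 to 30 counts in *fog-2(lf)* and 7 to 17 in wild type, and *try-5* 15 to 27 counts in *fog-2(lf)* and 4 to 11 in wild type. Genes switched on in early embryos summed to 62.1, 46.4 and 46.4 CPM in *fog-2(lf)*, against 48.3, 36.4 and 78.8 CPM in wild type, with overlap. The endoderm genes *med-1* and *end-1* had at most 1 and 4 counts in a library, *end-3* 13 to 37 counts in *fog-2(lf)* and 3 to 23 in wild type, *tbx-37* 23 to 38 counts in *fog-2(lf)* and 29 to 59 in wild type, and *ceh-51* 0.640 to 4.06 CPM in *fog-2(lf)* and 0.468 to 1.38 CPM in wild type. Of 15 embryonic genes tested, *ceh-51* and *sdz-1* were called higher and *elt-7* lower, and none of these calls held in every leave-one-out fit. Without wild type replicate 2, 0 were called higher and 2 lower. The part of sperm, or of any other feature of wild type replicate 2, in the differences described below was not tested.

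Some genes of the pathway in which FOG-2 acts were called, in both directions. Of 29 genes of germline sex determination, 4 were called higher and 3 lower, *fog-2* and *ftr-1* among the lower ones (without wild type replicate 2, 5 and 2). The shares were 13.8% higher and 10.3% lower, against 7.73% and 10.6% of all genes tested. The fit of the 6 first-day libraries called 0 higher and 1 lower. *fem-3*, which promotes male fate and spermatogenesis, had 87.9, 96.8 and 90.5 CPM in *fog-2(lf)*, against 76.9, 61.3 and 51.3 CPM in wild type (log2 fold change 0.54, SE 0.13, edgeR adjusted p = 0.026). All 3 mutant libraries were above all 3 wild-type ones, but the fit of the 6 first-day libraries did not call it. The sixth-day difference was of the same size (0.57, edgeR adjusted p = 0.019). *tra-2*, the mRNA that FOG-2 and GLD-1 repress, had 107, 120 and 109 CPM in *fog-2(lf)*, against 91.2, 101 and 92.9 CPM in wild type. This narrow gap (log2 fold change 0.24, edgeR adjusted p = 0.081) was not called in 8 of the 12 leave-one-out fits. *gld-1* itself had 821, 971 and 910 CPM in *fog-2(lf)* and 926, 1287 and 895 CPM in wild type, which overlapped. The spermatogenesis factors *fog-1* (log2 fold change 0.08) and *fog-3* (-1.12), the master regulator *tra-1* (0.17) and the RNA-binding repressor *fbf-1* (-0.22) were not called either.

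Some maternal transcripts were higher in *fog-2(lf)*. Of 35 oocyte RNA-binding and polarity genes, 12 were called higher and 0 lower, with a median log2 fold change of 0.17, and without wild type replicate 2 the count was 16 and 0. The fit of the 6 first-day libraries called 6 and 0. *oma-2*, a zinc-finger protein needed for oocyte maturation, had 816, 872 and 817 CPM in *fog-2(lf)*, against 621, 596 and 563 CPM in wild type (log2 fold change 0.49, SE 0.07, edgeR adjusted p = 0.0035). *spn-4*, which encodes an RNA-binding protein of the early embryo, had 1226, 1471 and 1263 CPM in *fog-2(lf)*, against 895, 818 and 778 CPM in wild type (0.67, SE 0.09, edgeR adjusted p = 0.0027). The 3 wild-type libraries lay close together for both genes, wild type replicate 2 included, and the groups did not overlap. The germ-granule regulators *meg-1* and *meg-3* and the Nanos homolog *nos-2* were higher by 0.50, 0.56 and 0.55 on the log2 scale (edgeR adjusted p = 0.010, 0.010 and 0.012). On the sixth day 12 of the 35 were called higher and 0 lower, *oma-2* (0.39) and *spn-4* (0.32) among them.

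Genes of oocyte maturation and DNA replication that were called moved the same way. Of 26 maturation and meiotic cell-cycle genes, 7 were called higher and 0 lower, and without wild type replicate 2 9 and 0. *cdc-25.2*, a phosphatase that activates the maturation kinase, had 88.8, 89.1 and 89.6 CPM in *fog-2(lf)*, against 64, 58.9 and 54.4 CPM in wild type (log2 fold change 0.59, edgeR adjusted p = 0.0054). Its mutant libraries differed by less than 1 CPM. Its sixth-day difference was -0.17 and not called, and the change between days was itself called (interaction -0.76, edgeR adjusted p = 0.016). The cyclin B gene *cyb-1* was higher by 0.34 (edgeR adjusted p = 0.013). Of 34 replication genes, 6 were called higher and 0 lower (8 and 0 without wild type replicate 2), including the sliding clamp *pcn-1* (0.30) and the initiation factor *mcm-10* (0.40). The fit of the 6 first-day libraries called 1 maturation and 0 replication genes, and *cyb-1*, *pcn-1* and *mcm-10* were not among them. Of 34 genes of meiotic pairing and recombination, 1 was called higher and 0 lower (2 and 0 without wild type replicate 2).

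Histone RNA was measured only where it is polyadenylated. Of 39 histone genes tested, 4 were called higher and 0 lower (5 and 2 without wild type replicate 2). In the full fit 10.3% were called, against 18.3% of all genes tested. *his-72*, an H3.3 replacement histone, had 278, 284 and 286 CPM in *fog-2(lf)*, against 213, 193 and 203 CPM in wild type (log2 fold change 0.48, edgeR adjusted p = 0.0046). The linker histone gene *his-24* had 150, 51.5 and 167 CPM in *fog-2(lf)*, against 22.2, 16.5 and 53.6 CPM in wild type. Its lowest mutant library lay below the highest wild-type one, so the groups overlapped, although the test called it (2.01, SE 0.47, edgeR adjusted p = 0.025). The fit of the 6 first-day libraries did not.

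Eggshell genes were divided. Of 18, 5 were called higher and 3 lower, and without wild type replicate 2 6 and 3. The chitin synthase gene *chs-1*, the chondroitin proteoglycan genes *cpg-1* and *cpg-2*, *gna-2*, which makes a sugar precursor of chitin, and *mbk-2*, an egg-activation kinase, were called higher by 0.25 to 0.43 on the log2 scale. Each of those calls was lost without *fog-2(lf)* replicate 2, and all but that of *mbk-2* also without wild type replicate 3. *cpg-1* and *chs-1* were lost without wild type replicate 1 too, and *gna-2* and *chs-1* without *fog-2(lf)* replicate 3. *perm-1*, *perm-2* and *perm-4*, named for the permeability barrier of the egg, were called lower. Of all the eggshell calls only 2 held in every leave-one-out fit, so not all 3 of these did. *perm-2* had 710, 659 and 745 CPM in *fog-2(lf)*, against 1530, 779 and 1269 CPM in wild type (-0.76, edgeR adjusted p = 0.032), and *perm-4* 1152, 1088 and 1269 CPM in *fog-2(lf)*, against 1755, 1385 and 1816 CPM in wild type (-0.50, edgeR adjusted p = 0.033). Wild type replicate 2 was the lowest wild-type library for both, and the groups did not overlap. With the 6 first-day libraries alone, 0 of the 18 eggshell genes were called.

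Genes of the somatic gonad, which receives the sperm signal, were not called more often than all genes tested. Of 35, 1 was called higher and 4 lower (3 and 4 without wild type replicate 2). With library totals 5 were higher and 2 lower. In the full fit 14.29% were called, against 18.3% of all genes tested. The share called lower was close to the 10.6% of all genes tested. *acy-4*, the adenylate cyclase of the gonadal sheath that is needed for the oocyte response to sperm, had 6.08, 4.93 and 4.28 CPM in *fog-2(lf)*, against 11.8, 8.89 and 11.396 CPM in wild type. Every mutant library was below every wild-type one (log2 fold change -1.07, SE 0.20, edgeR adjusted p = 0.011). *inx-8*, an innexin of the sheath-oocyte gap junctions, had 72.6, 61.6 and 65.7 CPM in *fog-2(lf)*, against 101, 97.2 and 82.1 CPM in wild type (-0.49, edgeR adjusted p = 0.014), and was lower on the sixth day as well (-0.41, edgeR adjusted p = 0.023). The receptor gene *vab-1*, whose product binds major sperm protein, was called higher (0.39) but not without *fog-2(lf)* replicate 2 (edgeR adjusted p = 0.10). The inositol phosphate genes *ipp-5* (-0.58) and *lfe-2* (-0.36) were called lower in the full fit only narrowly, and 11 of the 12 leave-one-out fits did not call either. The Gs gene *gsa-1* (-0.33) and the homeobox gene *ceh-18* (-0.12) were not called.

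Most yolk protein transcripts were lower in *fog-2(lf)*. Of 13 genes for yolk proteins, their receptor and their regulators, 6 were called lower and 0 higher (median log2 fold change -0.91, and -1.14 with the same count without wild type replicate 2). *vit-2* had 11070, 11366 and 15321 CPM in *fog-2(lf)*, against 35268, 20686 and 53970 CPM in wild type (-1.54, SE 0.31, edgeR adjusted p = 0.014). Wild type replicate 2 was the lowest wild-type library and still above all mutant ones. Together the 6 vitellogenin genes took 4.78%, 4.64% and 6.32% of all counts in *fog-2(lf)*, against 11.9%, 7.16% and 15.5% in wild type. Per length, *vit-2* averaged 1980 TPM in *fog-2(lf)* and 5287 TPM in wild type, and *vit-6* 2414 TPM in *fog-2(lf)* and 5036 TPM in wild type. *vit-1* (-1.37), *vit-5* (-1.21) and *vit-6* (-1.18) were called lower too, but none of the 3 without *fog-2(lf)* replicate 1 or 2 (edgeR adjusted p = 0.12 to 0.20). *vit-1* and *vit-5* were also not called without *fog-2(lf)* replicate 3 or wild type replicate 1, *vit-5* and *vit-6* not without wild type replicate 3, and *vit-5* not in limma on TPM. *vit-3* (-1.41) and *vit-4* (-0.91) were not called.

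Regulators and the receptor differed less uniformly. *pqm-1*, a zinc-finger transcription factor, had 20.1, 13.8 and 17.9 CPM in *fog-2(lf)*, against 64.4, 28.6 and 73.7 CPM in wild type (-1.68, edgeR adjusted p = 0.014), with the same order of wild-type libraries as *vit-2*. The homeobox gene *ceh-60* was called lower (-0.81) in the full fit and in 1 of the 12 leave-one-out fits. The oocyte yolk receptor gene *rme-2* had 1329, 1568 and 1331 CPM in *fog-2(lf)*, against 1177, 1438 and 1242 CPM in wild type, overlapping and not called (0.13). On the sixth day 3 of the 13 genes were called higher and 0 lower, and 7 differed between the days in that direction. *vit-1* was 1.81 higher on the log2 scale in sixth-day *fog-2(lf)* (edgeR adjusted p = 0.029), the opposite of its first-day difference.

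**Figure D2:**
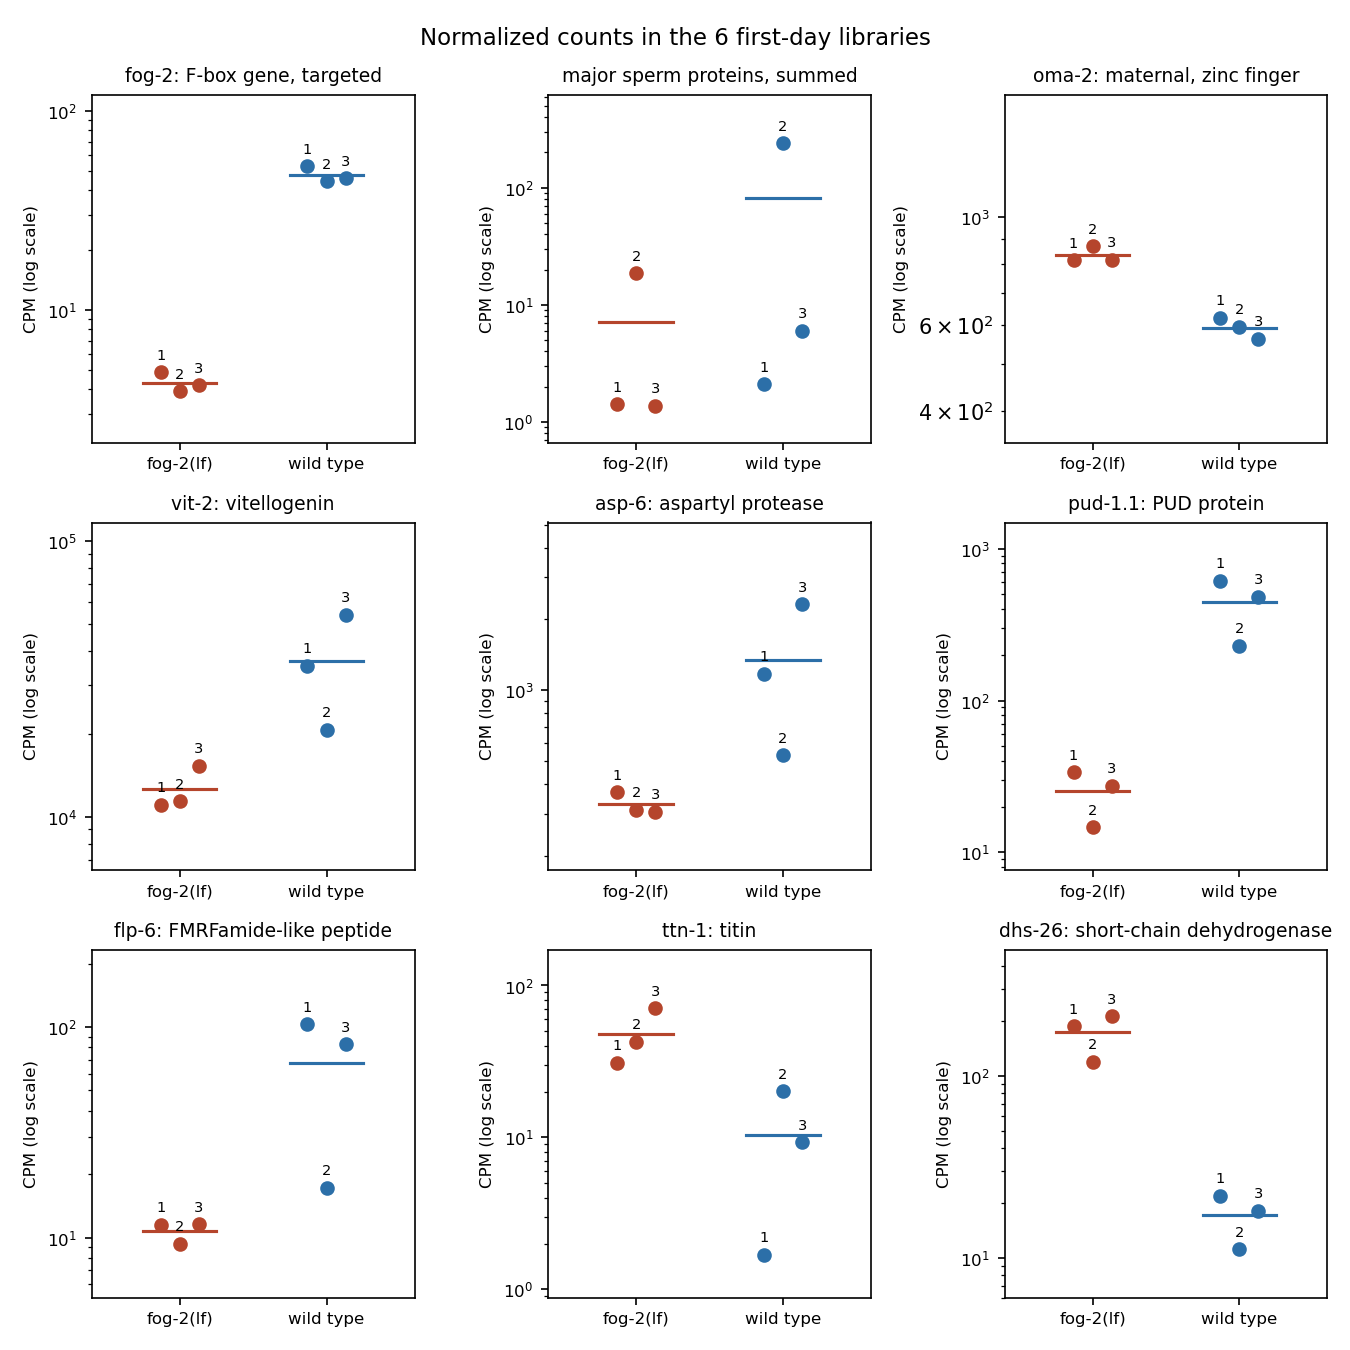
CPM on a log axis in the 3 *fog-2(lf)* and 3 wild-type first-day libraries, numbered by replicate, with a line at each group mean. *fog-2* lies at 3.92 to 4.86 CPM in *fog-2(lf)* and 44.5 to 52.8 CPM in wild type, while the *msp* sum (239 CPM) and *flp-6* (17.3 CPM) show wild type replicate 2 apart from the other wild-type libraries.

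Protease genes called were mostly lower too. Of 48 cathepsin, aspartyl protease and astacin genes, 15 were called lower and 2 higher (median log2 fold change -0.57), and without wild type replicate 2 20 and 4. *asp-6* had 370, 313 and 306 CPM in *fog-2(lf)*, against 1175, 530 and 2309 CPM in wild type (-2.02, SE 0.38, edgeR adjusted p = 0.012). *asp-1*, an intestinal aspartyl protease, had 671, 432 and 611 CPM in *fog-2(lf)*, against 1828, 1695 and 2765 CPM in wild type (-1.88, SE 0.20, edgeR adjusted p = 0.00060). The cathepsin B-like gene *cpr-9* had 350, 301 and 375 CPM in *fog-2(lf)*, against 1804, 882 and 2288 CPM in wild type (-2.28, SE 0.45, edgeR adjusted p = 0.013). In none of the 3 did the groups overlap, and wild type replicate 2 was the lowest wild-type library in each. *asp-5* (-1.51) and the astacin *nas-37* (-2.01), of a family that acts in molting, were lower as well. *cpr-9* was not called on the sixth day (0.85, edgeR adjusted p = 0.21), and its change between the days was (interaction 3.13, edgeR adjusted p = 0.021).

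Genes of fatty acid handling followed in part. Of 59 genes of fatty acid synthesis, activation and lipolysis, 17 were called lower and 3 higher (19 and 5 without wild type replicate 2). The acyl-CoA synthetase *acs-7* had 3.70, 2.51 and 2.68 CPM in *fog-2(lf)*, against 15.7, 11.7 and 30.8 CPM in wild type (log2 fold change -2.71, edgeR adjusted p = 0.0035). The fatty acid binding protein gene *lbp-7* (-2.04) and the acyl-CoA synthetase *acs-3* (-2.44) were lower too. The lysosomal lipase *lipl-1* had 2.41, 4.85 and 4.90 CPM in *fog-2(lf)*, against 30.2, 5.83 and 113 CPM in wild type (-3.61, edgeR adjusted p = 0.041), and was not called without *fog-2(lf)* replicates 1, 2 or 3 in turn or without wild type replicate 3. The palmitoyl-CoA desaturase *fat-5* went the other way (2.19), with 113, 90.1 and 144 CPM in *fog-2(lf)*, against 28.5, 3.74 and 44.6 CPM in wild type, and was not called without *fog-2(lf)* replicate 3 (0.13).

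Of 41 genes of beta-oxidation and ascaroside synthesis, 2 were called higher and 6 lower (2 and 8 without wild type replicate 2), and the 19.5% called is close to the 18.3% over all genes tested. Ascarosides are the pheromones of *C. elegans*, and acyl-CoA oxidases shorten their side chains. Among these oxidases *acox-1.3* had 0.901, 0.24 and 0.686 CPM in *fog-2(lf)*, against 9.17, 21.8 and 6.10 CPM in wild type (log2 fold change -4.36, SE 0.71, edgeR adjusted p = 0.0068). *acox-1.2* had 40.8, 29.9 and 68.7 CPM in *fog-2(lf)*, against 18.2, 10.5 and 16.5 CPM in wild type (1.63, SE 0.29, edgeR adjusted p = 0.0095). Both were free of overlap, in opposite directions, and wild type replicate 2 was here the library farthest from *fog-2(lf)*. *acox-1.2* was higher on the sixth day too (1.57, edgeR adjusted p = 0.012), whereas *acox-1.3* was not called there (-0.15). The acyl-CoA dehydrogenase *acdh-9* (-1.62), the enoyl-CoA hydratase *maoc-1* (-0.92) and the carnitine palmitoyl transferase *cpt-4* (-2.05) were lower, *maoc-1* not in the fit of the 6 first-day libraries. The ascaroside thiolase *daf-22* was called lower (-0.66) but not in 4 of the first-day leave-one-out fits.

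The PUD genes, named for proteins raised in *daf-2* insulin receptor mutants, were among the abundant transcripts with large decreases. *pud-1.1* had 33.8, 14.7 and 27.5 CPM in *fog-2(lf)*, against 617, 229 and 484 CPM in wild type, a 17.5-fold difference (log2 fold change -4.13, SE 0.46, edgeR adjusted p = 0.00087). *pud-3* had 35.5, 10.9 and 23.6 CPM in *fog-2(lf)*, against 528, 83.1 and 323 CPM in wild type (-3.74, edgeR adjusted p = 0.0072). *pud-1.2* (-3.58), *pud-4* (-4.0) and F15E11.1 of the same cluster (-3.69) were lower to a like extent. In all 5 genes the mutant libraries lay below the wild-type ones, *fog-2(lf)* replicate 2 was the lowest and wild type replicate 2 the lowest of its group. Several of these genes are near-identical copies whose reads may be shared, so they are not 5 separate measurements. On the sixth day the 5 differences were between -0.12 and -1.38 and none was called.

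Of 63 cytochrome P450 genes 13 were called lower and 3 higher (20 and 3 without wild type replicate 2), and of 62 UDP-glucuronosyltransferase genes 13 lower and 3 higher (15 and 4). The shares called lower were 20.6% and 20.97%, against 10.6% of all genes tested. *cyp-14A5* had 2.09, 2.37 and 2.58 CPM in *fog-2(lf)*, against 30.6, 24 and 15.8 CPM in wild type (log2 fold change -3.32, SE 0.29, edgeR adjusted p = 0.00021). *ugt-9* had 0.161, 0.133 and 0.0980 CPM in *fog-2(lf)*, against 4.96, 6.03 and 1.44 CPM in wild type (-4.95, edgeR adjusted p = 0.0031). Neither overlapped, and wild type replicate 2 was not the nearest library for either. The flavin monooxygenase *fmo-1* had 1.32, 6.98 and 0.816 CPM in *fog-2(lf)*, against 19.1, 31.2 and 55.1 CPM in wild type (-3.51, edgeR adjusted p = 0.015). Other members were higher. *ugt-66* had 20.7, 27.1 and 28.9 CPM in *fog-2(lf)*, against 3.13, 4.51 and 4.49 CPM in wild type (2.66, edgeR adjusted p = 0.0027), and *ugt-41* 97.7, 71.2 and 96.2 CPM in *fog-2(lf)*, against 17, 24 and 10.1 CPM in wild type (2.37, edgeR adjusted p = 0.0025). Both were called higher on the sixth day as well (1.95 and 1.13).

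Among dehydrogenases and glutathione S-transferases, single genes also changed by large amounts in each direction. Of 45 short-chain and aldehyde dehydrogenase genes 13 were called lower and 3 higher (18 and 4 without wild type replicate 2). *dhs-26*, among the higher ones, had 187, 120 and 212 CPM in *fog-2(lf)*, against 21.9, 11.1 and 18.1 CPM in wild type, a 10.2-fold difference (log2 fold change 3.35, SE 0.33, edgeR adjusted p = 0.00044). It was higher to a like degree on the sixth day (2.96, edgeR adjusted p = 0.0017). *dhs-4* was lower on both days (-3.03 on the first and -2.57 on the sixth). Of 38 glutathione S-transferase genes 3 were called higher and 4 lower (4 and 9 without wild type replicate 2, and 7 and 4 with library totals). The shares in the full fit, 7.9% higher and 10.5% lower, are close to the 7.73% and 10.6% of all genes tested. *gst-4*, a common reporter of oxidative stress, had 100, 78.4 and 74.9 CPM in *fog-2(lf)*, against 39.6, 27.3 and 24.8 CPM in wild type (1.47, edgeR adjusted p = 0.014), with no overlap. *gst-35* was higher at low level (3.73, 1.45 CPM on average in *fog-2(lf)* and 0.101 CPM in wild type), and *gst-28* lower (-1.51).

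Secreted and immune effector genes were more often called lower than higher, as were all genes tested (10.6% lower and 7.73% higher, and 14.5% and 10.1% without wild type replicate 2). Of 82 lysozyme, saposin-like and other effector genes 15 were called lower and 2 higher (32 and 5 without wild type replicate 2). Of 94 C-type lectins 18 were lower and 8 higher (28 and 7 without it), and of 46 transthyretin-related genes 7 lower and 2 higher (22 and 4 without it). The shares called lower were 18.3%, 19.15% and 15.2% in the order given. The saposin-like gene *spp-18* had 8.53, 1.57 and 2.48 CPM in *fog-2(lf)*, against 45.3, 17.3 and 86.5 CPM in wild type (log2 fold change -3.57, edgeR adjusted p = 0.013). The transthyretin-related gene *ttr-2* had 144, 127 and 150 CPM in *fog-2(lf)*, against 557, 155 and 611 CPM in wild type (-1.65, edgeR adjusted p = 0.020). Wild type replicate 2 lay just above the mutant range for *ttr-2*, which was not called with the 6 first-day libraries alone. *spp-3* (-2.13), *ttr-42* (-2.36), the lectin gene *clec-97* (-2.47) and the small heat shock gene *hsp-43* (-2.39) were lower with no overlap. *clec-266* was higher, at 93.6, 37.8 and 110 CPM in *fog-2(lf)*, against 12.4, 6.84 and 29.1 CPM in wild type (2.34, edgeR adjusted p = 0.023), also not called with the 6 first-day libraries alone. Of 187 nuclear hormone receptor genes 30 were called lower and 11 higher (49 and 10 without wild type replicate 2). With library totals 23 were lower and 22 higher, against 1067 lower and 2528 higher over all genes tested. The median log2 fold change of the receptors was -0.18 with TMM and -0.03 with library totals. Both lay below the medians of all genes, -0.01 and 0.14.

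**Figure D3:**
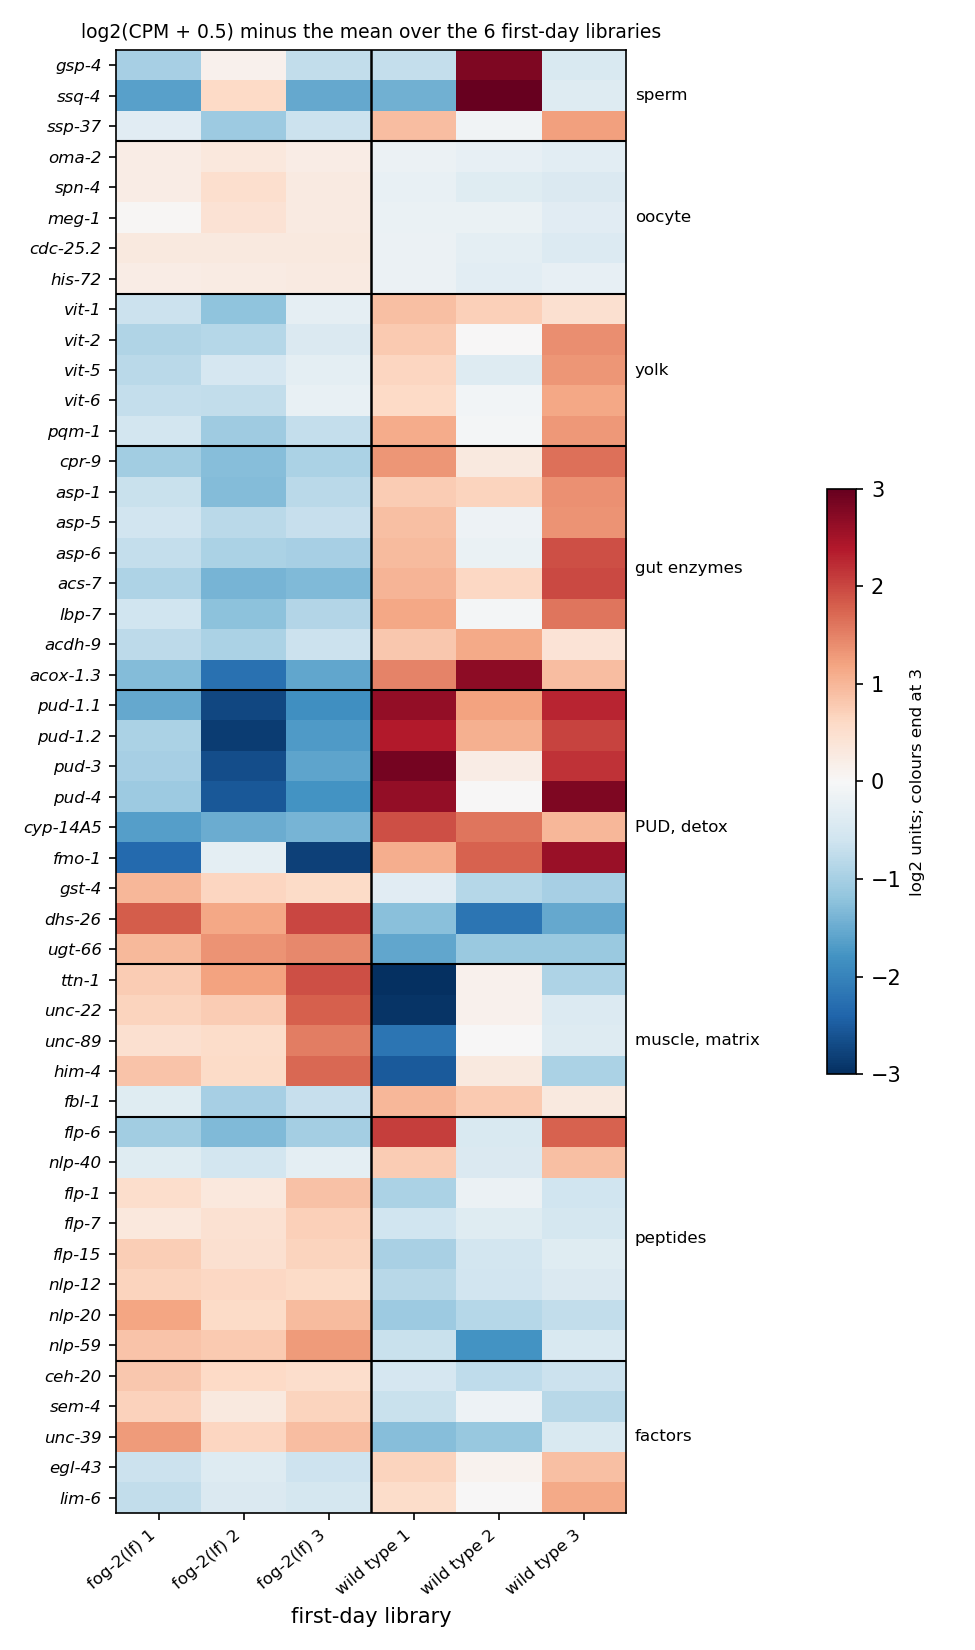
Log2(CPM + 0.5) of 48 named genes in the 6 first-day libraries, each gene centred on its mean, from blue (lower) to red (higher), with *fog-2(lf)* left of wild type and colours ending at 3 units. In the 4 *pud* genes wild type replicate 2 is the palest wild-type column (*pud-4* at 37.3 CPM, against 233 and 262 CPM in replicates 1 and 3), while *oma-2* and *spn-4* have about the same shade in all 3 wild-type libraries.

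Genes of translation lay slightly below the median of all genes under each scaling, while the number called depended on it. Of 69 mitochondrial ribosomal protein genes, 22 were called lower and 0 higher with TMM (16 and 0 without wild type replicate 2), but 4 lower and 2 higher with library totals and 5 and 2 in limma on TPM. Their median log2 fold change was -0.23 with TMM, -0.08 with library totals and -0.09 in limma on TPM, against -0.01, 0.14 and 0.10 over all genes. *mrps-6* had 42.4, 41.4 and 38.9 CPM in *fog-2(lf)*, against 65.5, 56.7 and 54.1 CPM in wild type (-0.52, edgeR adjusted p = 0.0075), with no overlap and a call under every scaling. *mrpl-49* (-0.56) and *mrpl-46* (-0.46) were lower but not called with the 6 first-day libraries alone. Of 43 translation factors 11 were called lower and 0 higher (8 and 0 without wild type replicate 2, 1 and 0 with library totals and in limma on TPM), among them the eIF5A gene *iff-2* (-0.57), which was not called with the 6 first-day libraries alone. Of 81 cytosolic ribosomal protein genes 8 were called lower and 0 higher (3 and 0 without wild type replicate 2), against 0 lower and 2 higher with library totals and 1 and 5 in limma on TPM, with medians of -0.18, -0.04 and -0.07 under the 3 scalings, and none of the 8 calls held in every leave-one-out fit. On the sixth day 72 of the 81 were called higher in *fog-2(lf)*, and the change between the days was called for 75.

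Some muscle genes were higher in *fog-2(lf)*, with a wide spread among libraries of both genotypes. Of 47 filament and attachment genes 10 were called higher and 0 lower (median log2 fold change 0.35), and without wild type replicate 2 28 and 0 (0.49). *ttn-1*, the titin gene, had 31, 42.7 and 71.0 CPM in *fog-2(lf)*, against 1.69, 20.0 and 9.27 CPM in wild type (2.22, SE 0.62, edgeR adjusted p = 0.046). *unc-22*, which encodes twitchin, had 54.4, 57.5 and 118 CPM in *fog-2(lf)*, against 3.99, 37.2 and 25.4 CPM in wild type (1.79, edgeR adjusted p = 0.079). *unc-89*, the obscurin gene, had 55.2, 57.8 and 116 CPM in *fog-2(lf)*, against 8.27, 39.5 and 29.9 CPM in wild type (1.56, edgeR adjusted p = 0.060). The groups did not overlap in any of these, wild type replicate 1 was lowest and replicate 2 highest of its group, and *fog-2(lf)* replicate 3 was the highest library. None of the 3 was called without *fog-2(lf)* replicate 3 (edgeR adjusted p = 0.15 to 0.24) or without wild type replicate 3 (0.10 to 0.13), *unc-22* also not without *fog-2(lf)* replicate 1 or 2 (0.11), and 1 of the 47 genes was called with the 6 first-day libraries alone. On the sixth day 0 of the 47 were called higher and 13 lower, and the change between the days was called for 22.

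Matrix genes were mixed. Of 23 basement membrane genes 3 were called higher and 1 lower (4 and 1 without wild type replicate 2). The 17.4% called in the full fit is close to the 18.3% of all genes tested. *him-4*, which encodes hemicentin, was again highest in *fog-2(lf)* replicate 3 and lowest in wild type replicate 1, with 32.1, 26.3 and 59.4 CPM in *fog-2(lf)*, against 2.66, 21.7 and 8.86 CPM in wild type (log2 fold change 1.82, edgeR adjusted p = 0.059), and was likewise not called without *fog-2(lf)* replicate 3 (0.19) or wild type replicate 3 (0.14). *fbl-1*, the fibulin gene, had 5.18, 3.20 and 4.05 CPM in *fog-2(lf)*, against 14.1, 12.1 and 8.46 CPM in wild type (-1.48, edgeR adjusted p = 0.0090). Its groups did not overlap, but a fit of single isoforms called 1 of its isoforms in the other direction (4.38). Of 120 cuticle collagens 7 were called higher and 6 lower (10.8% called, below the share of all genes tested). Without wild type replicate 2, which held 9 collagen genes far above the other libraries, the count was 27 and 9 and the median log2 fold change 0.48, against -0.01 with it. *col-135* was lower, at 10.8, 10.9 and 12.8 CPM in *fog-2(lf)*, against 34.1, 72.1 and 41.8 CPM in wild type (-2.1, edgeR adjusted p = 0.0088).

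Neuropeptide genes were more often higher than lower. Of 30 FMRFamide-like peptide (*flp*) genes 10 were called higher and 2 lower (median log2 fold change 0.63), and of 65 neuropeptide-like protein (*nlp*) genes 20 and 5 (0.64). Without wild type replicate 2, 11 *flp* genes were higher and 4 lower, and 23 *nlp* genes higher and 12 lower. The fit of the 6 first-day libraries called 2 *flp* genes higher and 1 lower, and 3 *nlp* genes higher and 0 lower. Over all 13229 genes tested in that fit, 203 were called higher and 402 lower. *flp-15* had 3.03, 2.48 and 2.87 CPM in *fog-2(lf)*, against 0.576, 0.943 and 1.15 CPM in wild type (1.66, SE 0.27, edgeR adjusted p = 0.0070). *nlp-20* had 11.1, 7.09 and 9.44 CPM in *fog-2(lf)*, against 1.91, 2.32 and 2.59 CPM in wild type (2.02, SE 0.30, edgeR adjusted p = 0.0046). *nlp-12*, a cholecystokinin-like peptide, had 4.28, 4.13 and 4.02 CPM in *fog-2(lf)*, against 1.19, 1.55 and 1.73 CPM in wild type (1.48, edgeR adjusted p = 0.0069). The 3 wild-type libraries were close to each other for all of these, and no groups overlapped. *flp-7* (1.41) was higher with a like spread and *nlp-59* (2.01) with a wider one, at 12.1, 11.5 and 16.3 CPM in *fog-2(lf)*, against 3.85, 1.52 and 4.60 CPM in wild type, and *flp-1* (1.28) and *flp-13* (1.5) too, the last pair not with the 6 first-day libraries alone.

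A few peptide genes went the other way. *flp-6* had 11.5, 9.33 and 11.6 CPM in *fog-2(lf)*, against 103, 17.3 and 82.9 CPM in wild type (log2 fold change -2.65, SE 0.47, edgeR adjusted p = 0.0092). No groups overlapped, but wild type replicate 2 was nearer to the mutant libraries than to its own group. *nlp-40*, an intestinal peptide of the defecation cycle, had 106, 93.0 and 111.5 CPM in *fog-2(lf)*, against 233, 101 and 255 CPM in wild type. Its groups overlapped through wild type replicate 2, and the call (-0.92, edgeR adjusted p = 0.047) was lost without any 1 of the other 5 first-day libraries. Summed over the 31 *flp* genes the level was 100.2, 88.0 and 116 CPM in *fog-2(lf)*, against 174, 81.3 and 179 CPM in wild type. The total of wild type replicate 2 lay below all 3 mutant libraries and the other wild-type totals above them.

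The study singled out 14 genes for G-protein coupled receptor binding in its *fog-2(lf)* signature. It named 6 transcription factors of the egg-laying neurons in its aging set, which is another contrast, between the sixth and the first day. Both choices were made on these same samples, so their counts are not independent evidence. Of the 14, 9 were called higher and 4 lower (10 and 4 without wild type replicate 2). They include *flp-6*, *nlp-40*, *nlp-12* and *flp-7* above, the prosaposin gene *spp-10*, which was lower (log2 fold change -1.19, edgeR adjusted p = 0.0088), and the Wnt pathway genes *cam-1*, *mom-2* and *dsh-1*, which were higher. Of the 6 factors 2 were called higher, with and without that library. *ceh-20*, the Pbx-type cofactor of Hox proteins, had 55.1, 47.5 and 45.3 CPM in *fog-2(lf)*, against 21.8, 18.2 and 19.9 CPM in wild type (1.31, SE 0.10, edgeR adjusted p = 0.00018). The groups were far apart and tight, and *ceh-20* was higher on the sixth day by less (0.48, edgeR adjusted p = 0.016), with a called change between the days (-0.83, edgeR adjusted p = 0.016). *sem-4*, a spalt-type zinc-finger gene, was the other (1.29, edgeR adjusted p = 0.018) and was not called with the 6 first-day libraries alone.

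Developmental signalling genes that were called in the Wnt pathway were all higher. Of 28 tested, 7 were called higher and 0 lower (6 and 0 without wild type replicate 2, 3 and 0 with the 6 first-day libraries). *mom-2*, a Wnt ligand, had 263, 313 and 265 CPM in *fog-2(lf)*, against 203, 213 and 194 CPM in wild type (log2 fold change 0.46, edgeR adjusted p = 0.0073). The Ror receptor gene *cam-1* (0.45) and the Dishevelled gene *dsh-1* (0.50) were higher with no overlap. Of 20 TGF-beta pathway genes 3 were called higher and 2 lower, but 4 higher and 6 lower without wild type replicate 2. The receptor genes *daf-1* (0.46, edgeR adjusted p = 0.0073) and *daf-4* (0.44, edgeR adjusted p = 0.022) were higher, and the ligand gene *unc-129* was higher on the first day (1.24) and lower on the sixth (-1.16, edgeR adjusted p = 0.021), the first-day call being lost with the 6 first-day libraries alone.

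Of 66 homeobox genes 9 were called higher and 6 lower (12 and 8 without wild type replicate 2). *unc-39*, a Six-type gene, had 2.90, 1.68 and 2.16 CPM in *fog-2(lf)*, against 0.0719, 0.135 and 0.518 CPM in wild type (log2 fold change 3.36, SE 0.65, edgeR adjusted p = 0.013). *ceh-30*, a BarH-type gene, was lower (-2.23, edgeR adjusted p = 0.017), and *egl-43*, a zinc-finger gene of the egg-laying motor neurons, was lower on both days (-1.53 and -1.27). The serotonin receptor *ser-7* had 0.290, 0.533 and 0.327 CPM in *fog-2(lf)*, against 2.23, 3.54 and 1.73 CPM in wild type (-2.69, edgeR adjusted p = 0.0054). These are low levels with no overlap, resting on few counts. Of 97 ligand-gated channel genes 12 were called higher and 3 lower (19 and 6 without wild type replicate 2). In the full fit 15.5% of these channel genes were called, against 18.3% of all genes tested. Of 265 genes of the F-box families, to which *fog-2* belongs, 35 were called higher and 15 lower, but 25 and 29 without wild type replicate 2. In the full fit 18.9% of them were called, close to the 18.3% of all genes tested. By direction the shares were 13.2% higher and 5.66% lower, against 7.73% and 10.6% of all genes.

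**Figure D4:**
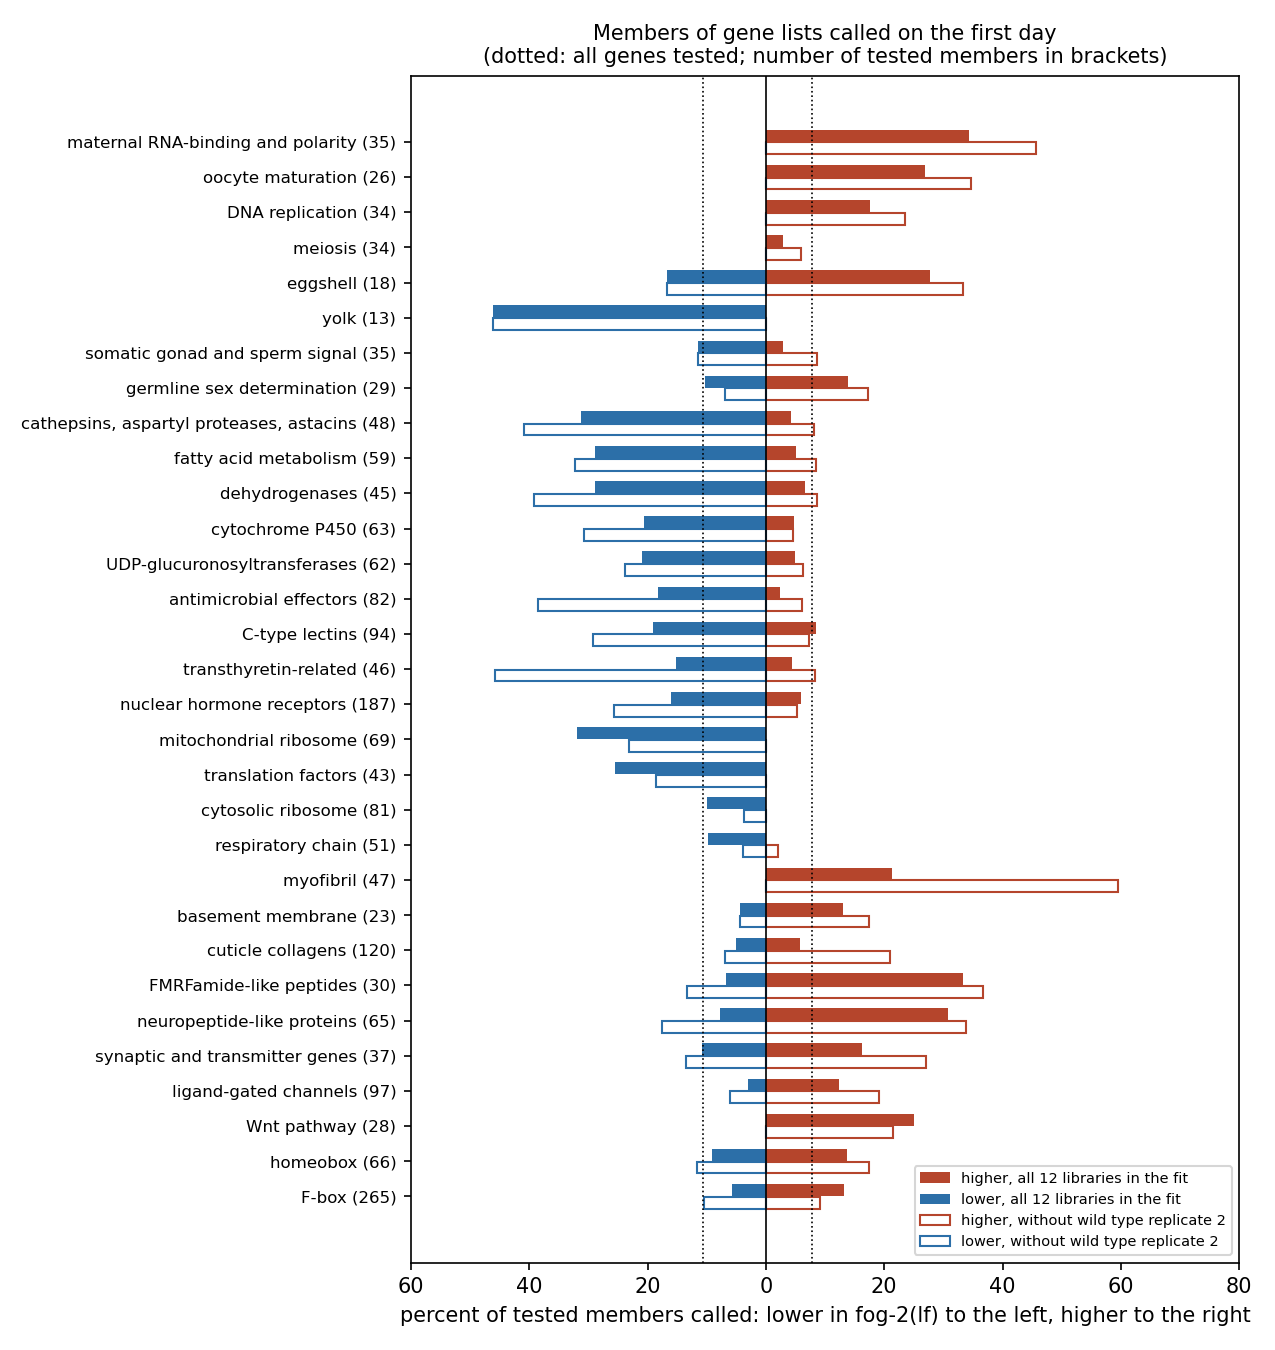
Percent of the tested members called higher (right) or lower (left) in *fog-2(lf)*, for a selection of the 54 gene lists. Bars show the fit with all 12 libraries (filled) and that without wild type replicate 2 (open). Dotted lines mark the shares over all genes tested in the fit of all 12 libraries, 7.73% higher and 10.6% lower. Without wild type replicate 2 those shares were 10.1% and 14.5%, which no line marks. The open bar is the longer for the muscle list (28 against 10 genes) and the transthyretin-related list (22 against 7 lower).

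The largest single differences were mostly decreases. Among genes with at least 10 CPM in the higher group and no overlap, *sri-40*, a serpentine receptor gene, had 0.386, 0.187 and 0.457 CPM in *fog-2(lf)*, against 18.1, 43.8 and 11.6 CPM in wild type, a 71.8-fold difference (log2 fold change -6.17, SE 0.59, edgeR adjusted p = 0.00037). *endu-2*, which encodes an endoribonuclease, had 10.5, 7.89 and 6.01 CPM in *fog-2(lf)*, against 125, 78.3 and 295 CPM in wild type (-4.35, SE 0.46, edgeR adjusted p = 0.00060). *bath-13*, of the MATH-domain family, had 1.93, 0.986 and 0.751 CPM in *fog-2(lf)*, against 21.5, 19.6 and 19.4 CPM in wild type (-4.04, SE 0.38, edgeR adjusted p = 0.00035). The wild-type libraries of *bath-13* agreed closely, while those of *sri-40* and *endu-2* differed by more than 3-fold. C27A7.8 (-5.32), F47E1.4 (-4.44), H29C22.1 (-4.15), F09C8.1 (-3.97) and C29F7.2 (-3.90), which have no gene name in the annotation, were also lower. In the first 4 of them wild type replicate 2 was the lowest wild-type library, by more than 3-fold.

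Large increases were fewer. Beside *dhs-26*, *ugt-66* and *ugt-41*, C30G12.2 had 388, 186 and 299 CPM in *fog-2(lf)*, against 67.6, 56.0 and 51.6 CPM in wild type (log2 fold change 2.32, SE 0.27, edgeR adjusted p = 0.0013). T22B7.7 had 336, 263 and 505 CPM in *fog-2(lf)*, against 88.1, 22.6 and 72.2 CPM in wild type (2.60, edgeR adjusted p = 0.0076). Y54F10AM.11 had 67.1, 48.3 and 57.4 CPM in *fog-2(lf)*, against 11.2, 14.4 and 10.3 CPM in wild type (2.26, SE 0.19, edgeR adjusted p = 0.00021). All 3 were free of overlap and were called higher on the sixth day too (2.43, 1.59 and 2.39). The sugar transporter gene *swt-3* (2.44) and the bZIP gene *zip-8* (2.75) were called higher on the first day and not on the sixth, *zip-8* not with the 6 first-day libraries alone. *rnh-1.3*, an RNase H gene, was higher too (3.10) but uneven, highest in *fog-2(lf)* replicate 1, with 93.3, 14.9 and 7.22 CPM in *fog-2(lf)*, against 3.99, 4.72 and 4.78 CPM in wild type, and was not called with the 6 first-day libraries alone.

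Whether the differences were present later was asked of the sixth-day libraries. No library was in both comparisons. Both came from the same fit and shared its estimate of the spread, so the calls of the days are not independent. A total of 2967 genes were called on the sixth day between *fog-2(lf)* and wild type (20.4%), 9.86% higher and 10.5% lower. Of these 625 were also called on the first day, which is 23.4% of the first-day and 21.1% of the sixth-day genes. The direction was the same for 434 (16.2% of the first-day and 14.6% of the sixth-day genes), 209 higher and 225 lower, and opposite for 191. The 434 became 810 without first-day wild type replicate 2 and 155 without sixth-day wild type replicate 2. Leaving out that first-day library also moved the sixth-day calls from 2967 to 4221. Of 1236 first-day genes over 2-fold, 162 (13.1%) were called in the same direction on the sixth day.

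The largest differences seen on both days included *fog-2* (-3.47 on the first and -4.04 on the sixth day, log2), *bath-13* (-4.04 and -5.08), *sri-40* (-6.17 and -3.48), *dhs-26* (3.35 and 2.96) and C30G12.2 (2.32 and 2.43). On the sixth day *sri-40* averaged only 0.0307 CPM in *fog-2(lf)* and 0.364 CPM in wild type. Its difference there rests on few reads (SE 0.92, edgeR adjusted p = 0.034). The interaction, which tests whether the genotype difference itself differs between the days, was called for 2233 genes (15.3%), with 7.38% of genes tested changing upward and 7.96% downward. It is the sixth-day minus the first-day difference, so genes chosen by a first-day call tend to have an interaction of opposite sign. Of the first-day genes 1000 (37.4%) were called for the interaction. In 997 of those the difference was smaller or of opposite sign on the sixth day, a direction that this choice of genes favours. *pud-1.1* (-4.13 on the first and -0.54 on the sixth day), *cpr-9* (-2.28 and 0.85), *flp-15* (1.66 and -0.67) and *cyp-14A5* (-3.32 and -0.48) were examples, with edgeR adjusted p for the interaction of 0.018, 0.021, 0.014 and 0.0085. Where the interaction was not called, this does not show that a gene differed alike on both days.

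**Figure D5:**
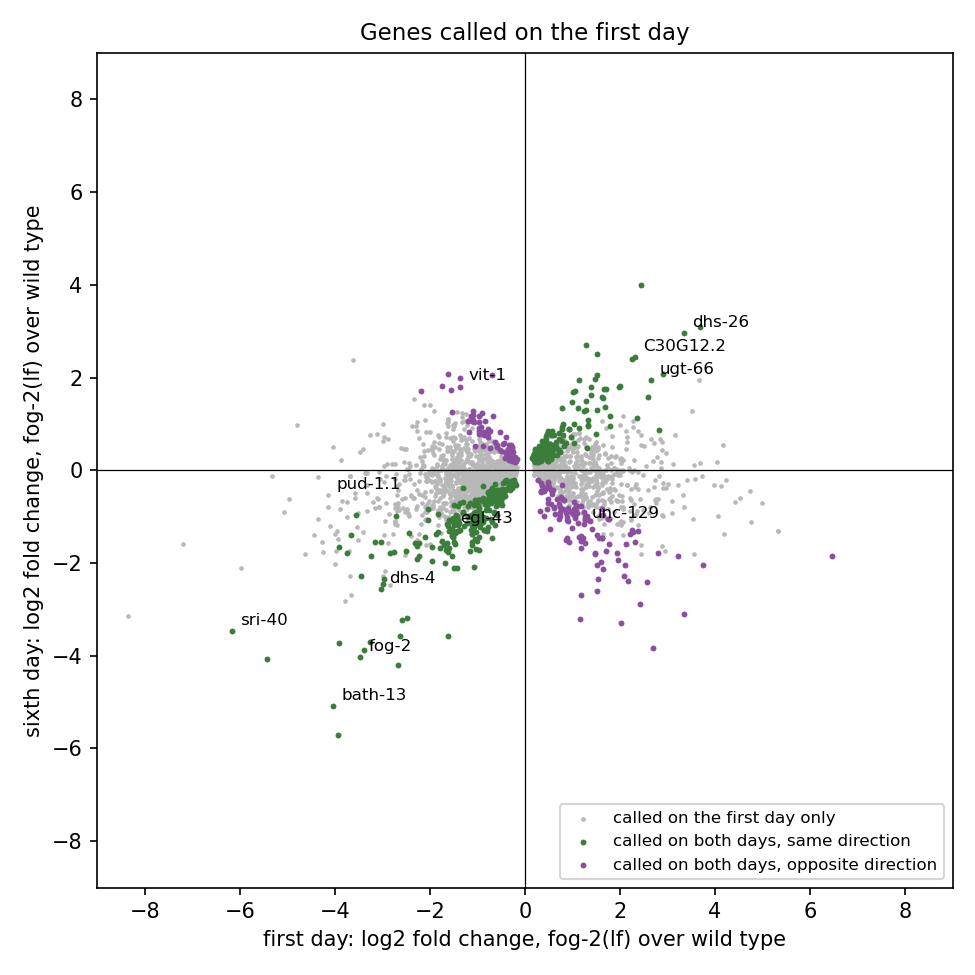
Log2 fold change (*fog-2(lf)* over wild type) on the sixth day against that on the first day for the 2671 genes called on the first day. The 434 genes called on both days in the same direction (green) include *bath-13*, *sri-40* and *dhs-26*, 191 were called in opposite directions (purple), and *pud-1.1*, at -4.13 on the first day and -0.54 on the sixth, lies near the horizontal axis.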

How the data were processed

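Poly(A) RNA of whole worms was sequenced in 12 libraries as 50-nt single reads with a kit that did not mark strand. The authors made the deposited estimated counts and TPM per isoform with kallisto on WBcel235 transcripts (sleuth is named too, and the sources used here give no versions). Each file held 32905 isoforms. Of these 28369 were matched by transcript and 4229 by sequence name only, 307 matched no gene and were left out, and the rest were summed to 22037 genes. Deposited estimated counts were rounded after summing.

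Genes were filtered on low counts and fitted with edgeR 4.0.16 (R 4.3.3) by quasi-likelihood over all 12 libraries with 1 mean per genotype and age and TMM scaling, and Benjamini-Hochberg adjustment ran over all 14561 genes. The threshold was 0.1. Alternatives were DESeq2 1.42.0, limma 3.58.1 on log2 of the deposited TPM plus 0.1, 0.5 or 1, other scalings and filters, a threshold of 0.05, isoforms, the 6 first-day libraries alone, a replicate block, and each library left out. Tables were handled with Python 3.11.15, pandas 2.3.3 and numpy 2.4.6.

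Named genes were *fog-2* and *ftr-1*, the 15 largest changes per direction at 10 CPM or more without overlap, up to 6 called genes per list at 1 CPM or more, all members of the sex, sperm, gonad, yolk, eggshell and male lists, the genes named by the study, and the 10 largest interactions. Members and the 54 lists were chosen with earlier results of these data known.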

Additional observations from a re-analysis of the deposited data

Results flagged for a closer look

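For 10 genes the *fog-2(lf)* to wild-type difference was large on the first day and was itself different on the sixth day by the interaction test (edgeR adjusted p under 0.1). They were taken for their large values from the 1000 genes called both on the first day and for the interaction. The size of their values therefore follows from that choice. As said above, the first-day call of *lipl-1* did not hold in every leave-one-out fit. The interaction, sixth-day minus first-day log2 fold change, was 5.98 for the lipase gene *lipl-1* (-3.61 on the first day, 2.37 on the sixth, edgeR adjusted p = 0.030). It was 5.20 for C27A7.8 (-5.32 and -0.12, edgeR adjusted p = 0.031), 4.55 for the flavin monooxygenase *fmo-2* (-4.04 and 0.51, edgeR adjusted p = 0.087), 4.21 for *acox-1.3* (-4.36 and -0.15, edgeR adjusted p = 0.047) and 4.11 for the alcohol dehydrogenase *adh-1* (-3.87 and 0.23, edgeR adjusted p = 0.075). F42A10.7 had 3.98 (-2.98 and 1.00, edgeR adjusted p = 0.037) and T09E11.11 3.90 (-3.12 and 0.78, edgeR adjusted p = 0.092). *rnh-1.3* had -4.03 (3.10 and -0.93, edgeR adjusted p = 0.037).

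C41G6.13 and Y75B12B.8 each had -6.63 (5.33 and -1.3, edgeR adjusted p = 0.032). Their values were identical in every library, so they count as 1 measurement, and with 68 estimated counts in *fog-2(lf)* and 2 in wild type on the first day the fitted fold depends on the prior count. None of the sixth-day differences of these 10 genes was called.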

How the results depend on the processing

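Counts of calls depended on the libraries in the fit and on the threshold. The 2671 first-day genes became 605 with the 6 first-day libraries alone, 1492 at an adjusted p under 0.05, 1550 per isoform and 1156 to 3672 when single libraries were left out (1156 without first-day *fog-2(lf)* replicate 3, 3672 without first-day wild type replicate 2). The 2233 interaction genes became 3627, 3791 and 3809 in limma on TPM plus 0.1, 0.5 and 1, 1080 at 0.05, 855 per isoform and 1027 to 3321 with a library left out. The 434 genes called alike on both days became 173 at 0.05, 204 per isoform and 155 to 810 with a library left out, and the 554 called list members 139 with the 6 first-day libraries, 310 at 0.05, 338 per isoform and 254 to 763 with a library left out. DESeq2 called 3191 genes. Of the 298 named genes that were called, 190 lost the call with the 6 first-day libraries and 40 with library totals, and DESeq2 lost 4. Values that reversed were *egg-3* (-1.45), *fbl-1* (4.38) and *ptp-2* (-7.28) per isoform, *msp-33* without first-day wild type replicate 2 (0.32, in a range of -3.805 to 0.32 over the libraries left out), and *mog-4* in limma on TPM plus 0.1, 0.5 and 1 (0.37, 0.37 and 0.36). The cause was not tested.

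Whether replicate numbers pair the first-day samples cannot be told from 3 libraries a group, whose deviations from their mean depend on each other. These deviations correlated at 0.177, 0.0825 and -0.0636 for numbers 1, 2 and 3. For first-day pairs of unlike number the values lay between -0.146 and 0.0557. With a replicate block the counts were 2584, 2190, 477 and 510 in the order given, and 37 of the 298 named genes lost the call. At a depth of 21162593 to 38775999 counts, genes under about 1 CPM rest on few reads, and with 3 libraries a group small differences could be missed.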
